A study of Mus musculus with 6 samples.

Results

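Splicing of Apob, of Mttp and of 8 other apolipoprotein genes that hepatocytes express (Apoa1, Apoa2, Apoa5, Apoc1, Apoc3, Apoe, Apoh and Apom) was compared between mouse hepatocytes after high-fat feeding (HFD, 60% fat) and after low-fat feeding (LFD, 10% fat). All mice were male C57BL/6J, ate chow with 13.5% fat up to the age of 8 weeks and then either diet for 12 weeks, and each diet had 3 libraries of liver hepatocyte RNA. The genes were picked by name after results of these tables were known, Apob because its splicing entry differed between the diets, so its difference is described here and not tested. The unit was the local splicing variation (LSV), an exon with every junction and retained intron that leaves or enters it, and 59 of the 26910 LSVs measured on both diets belonged to these genes. They covered 9 of the 10 genes and held 244 entries (215 junctions, 26 retained introns and 3 that have no length) at 167 distinct places. Apom, whose product carries lipids in high-density lipoprotein, had no LSV and is not described further.

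For each entry the deposited tables give PSI, the fraction of the LSV's reads that use the entry, as a posterior mean with a posterior variance. The libraries of a diet were pooled into 1 value per entry, so errors below are posterior standard deviations that cover reads and not animals, and no difference between the diets could be tested across animals. In the PSI tables of the diets, PSI can take no value below 0.0125 or above 0.9875, the centres of the outermost of 40 bins. Read depth per library is unknown. LSVs were present for 6 of 7 hepatocyte marker genes (all but Tf), for 1 of 5 macrophage markers (Clec4f), for none of 5 endothelial markers, for 1 of 5 stellate cell markers (Dcn) and for 1 of 5 bile duct markers (Spp1). These counts show which genes had enough spliced reads to be quantified, and the part of other cell types in the results was not tested.

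Apolipoprotein B is the large protein on which very-low-density lipoprotein is built, and 1 molecule of it stays with each particle from secretion to clearance. In the endoplasmic reticulum the microsomal triglyceride transfer protein, whose large subunit is encoded by Mttp, loads lipid onto apolipoprotein B as it is made. The smaller apolipoproteins exchange between particles and set how triglyceride is hydrolysed, how remnants are taken up and how cholesterol returns to the liver in high-density lipoprotein.

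The sites on which the Apob result turns all lie within the gene's last exon, exon 29 of the GENCODE transcript Apob-202 on the plus strand at chr12:8015015-8016835 (GRCm38, the assembly also called mm10). This exon is 1821 bp long, and its first 1533 bases are coding, with the stop codon at chr12:8016548-8016550. The windows of 30 bases below come from the Apob-202 transcript sequence. Capitals mark the first 2 bases taken out after a donor or the last 2 bases taken out before an acceptor. They are shown because every spliced junction that leaves the exon's first part and differed between the diets joins the first donor to one of the 3 acceptors, while the unspliced segment runs between the second donor and the first acceptor.
Apob donor used by all 3 junctions, chr12:8015068-8015097: gtctgatggtgaaagGTacatcaaaattaa
Apob second donor, start of the segment, chr12:8015551-8015580: tcagctgtttaatggGTtaggaaacctact
Apob first acceptor, end of the segment, chr12:8015671-8015700: agatctcatattgattttcAGggaggagtt
Apob second acceptor, chr12:8015852-8015881: aacatggttttcaaaatacAGgtcccatat
Apob last acceptor, chr12:8015936-8015965: tttcttcaatccatacttcAGgaggggtcc

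In all, 2 of the 244 entries differed by at least 0.2 in PSI with a 95% interval of the difference (normal approximation, from the posterior SDs) that excluded 0, where 0.417% of the 68110 entries of all genes did. Both were in Apob and in the same LSV, so 1 of the 59 LSVs held such entries, where 0.624% of all LSVs did. That LSV follows reads leaving the first part of the last exon (chr12:8015015-8015565). The unspliced segment at chr12:8015566-8015691, which is 126 bp long and is scored as a retained intron, had a PSI of 0.704 ± 0.0402 on HFD and was at the lower limit of 0.0125 on LFD. The difference was 0.692 with an SD of 0.0402. That SD came almost wholly from HFD, since the LFD value at the limit had a posterior SD of 7.4e-06. The junction that removes 790 bp, from the first donor to the second acceptor, had a PSI of 0.226 ± 0.0324 on HFD and 0.823 ± 0.0215 on LFD, a difference of -0.598 with an SD of 0.0389. Thus on HFD most reads counted in this LSV ran on unspliced, and on LFD nearly all of them were spliced. The junction that would remove the segment alone, from the second donor to the first acceptor, was at the lower limit on both diets. This held in this LSV and in the LSV at the segment's other end.

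The other junctions from the same donor were minor on both diets. The 609-bp junction to the first acceptor had a PSI of 0.0493 ± 0.0127 on HFD and 0.121 ± 0.0184 on LFD, and with a difference of -0.0722 (SD 0.0224) it was the only further entry past a smaller difference of 0.05, which 7.1% of all genes' entries passed. The 874-bp junction to the last acceptor had a PSI of 0.0127 ± 0.0023 on HFD and 0.0541 ± 0.0137 on LFD. Among the 3 acceptors alone, the shares were closer between diets than the PSI values. The first acceptor took 0.171 of the spliced PSI on HFD and 0.122 on LFD, the second 0.784 on HFD and 0.824 on LFD, and the last 0.0442 on HFD and 0.0542 on LFD. The HFD share of the last acceptor rests on a PSI next to the lower limit, which sets its size. These 3 junctions summed to a PSI of 0.287 on HFD and 0.999 on LFD.

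The annotation places the segment inside protein-coding sequence. It is not an annotated intron, and in Apob-201 and Apob-202 it is part of the coding sequence of the last exon, so an mRNA that keeps it is the annotated full-length form at this place. Of the 3 junctions, the 790-bp one is annotated, as the intron between exon 4 and exon 5 of Apob-203, a transcript whose stop codon is at chr12:8015895-8015897. The 609-bp stretch is divisible by 3 and corresponds to 203 codons. The 790-bp and 874-bp stretches are not divisible by 3. A high PSI of the segment on HFD is therefore a high share of reads that match the annotated exon.

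**Figure D1:**
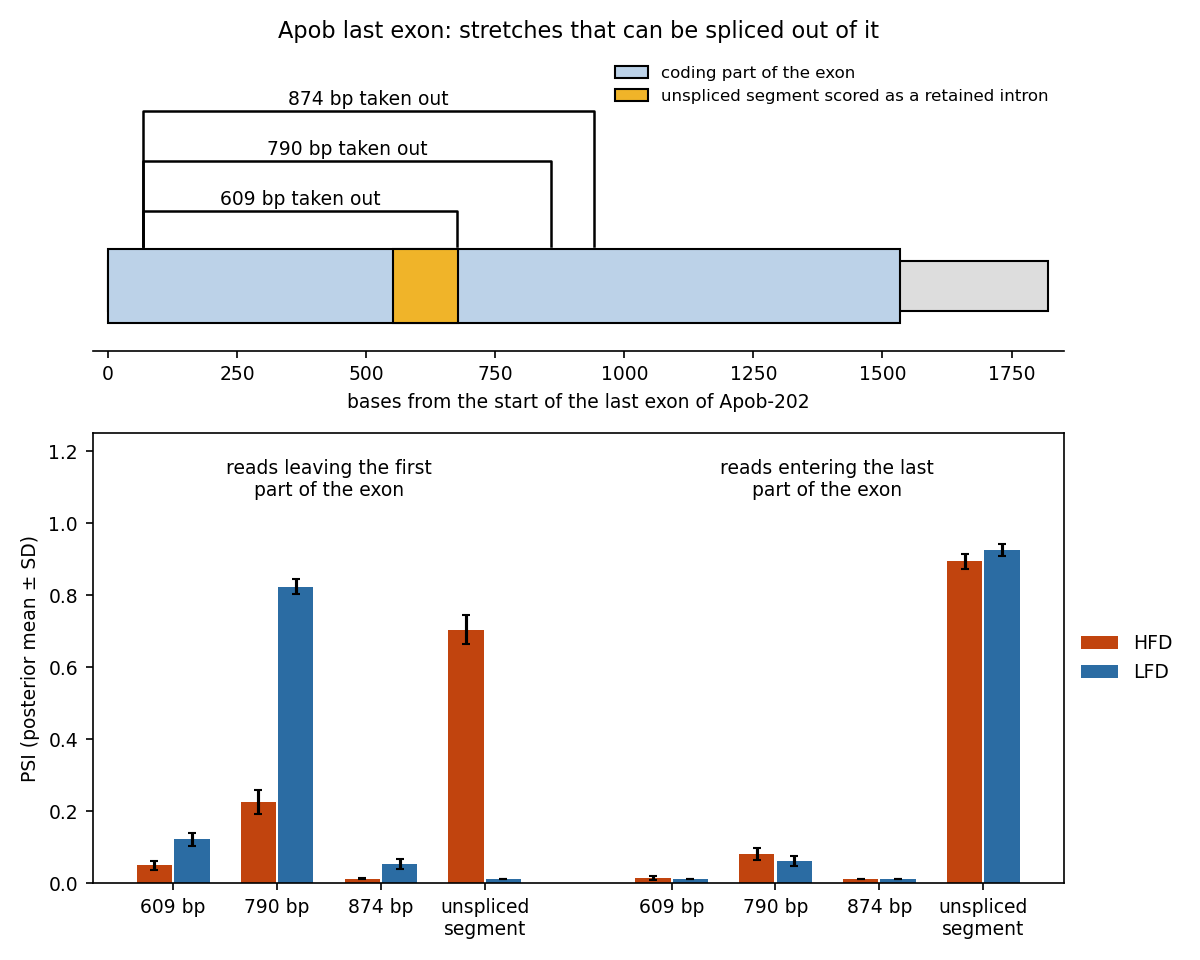
The upper map shows the last exon of Apob in bases from its start, with the 3 stretches that can be spliced out and the 126-bp segment scored as a retained intron; the bars below give PSI (posterior mean ± SD) on HFD and LFD for each of them, as read from the first part of the exon (left set) and from the last part (right set). Read from the first part, the segment stood at 0.704 on HFD and 0.0125 on LFD, and read from the last part at 0.893 on HFD and 0.925 on LFD.

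The same segment is also counted from its other end, in the LSV of reads that enter the last part of the exon (chr12:8015692-8016835). There its PSI was 0.893 ± 0.0210 on HFD and 0.925 ± 0.0162 on LFD, a difference of -0.0316 with an SD of 0.0265, whose 95% interval included 0. The 790-bp junction had a PSI of 0.0810 ± 0.0172 on HFD and 0.0618 ± 0.0149 on LFD in that LSV, a difference of 0.0192 with an SD of 0.0228. The 609-bp junction had a PSI of 0.0136 on HFD and 0.0125 on LFD. Read from this end, the segment was thus mostly unspliced on both diets, and the large difference was present at one end only. On LFD the segment's PSI differed by 0.912 between its ends, and on HFD by 0.189.

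Such a gap between ends was rare among retained introns. In all genes, 3140 introns were measured from both ends, 13 of them in these genes, and the median gap between the diet differences at the ends was 0.00832. The gap of the Apob segment was 0.723 with an SD of 0.0481, the largest of the 3140. Apob was picked for the difference at one of these ends, so this rank is a description and not a test. Only 1 other intron, in Serpina1b, had a gap above 0.4, and 15 introns (0.478%) had one above 0.2. An unequal level between the ends on LFD was found in more introns, since 33 of them (1.05%) had a gap in level above 0.5, and the Apob segment ranked 6 among all introns. Of the 3140 introns, 35 (1.11%) differed between the diets by the rule at either end, and 4 of these did so at both ends, in the same direction each time. Segments that lie wholly inside an annotated coding exon numbered 74 of the 3140, and 21 of these are, like the Apob segment, not annotated introns.

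**Figure D2:**
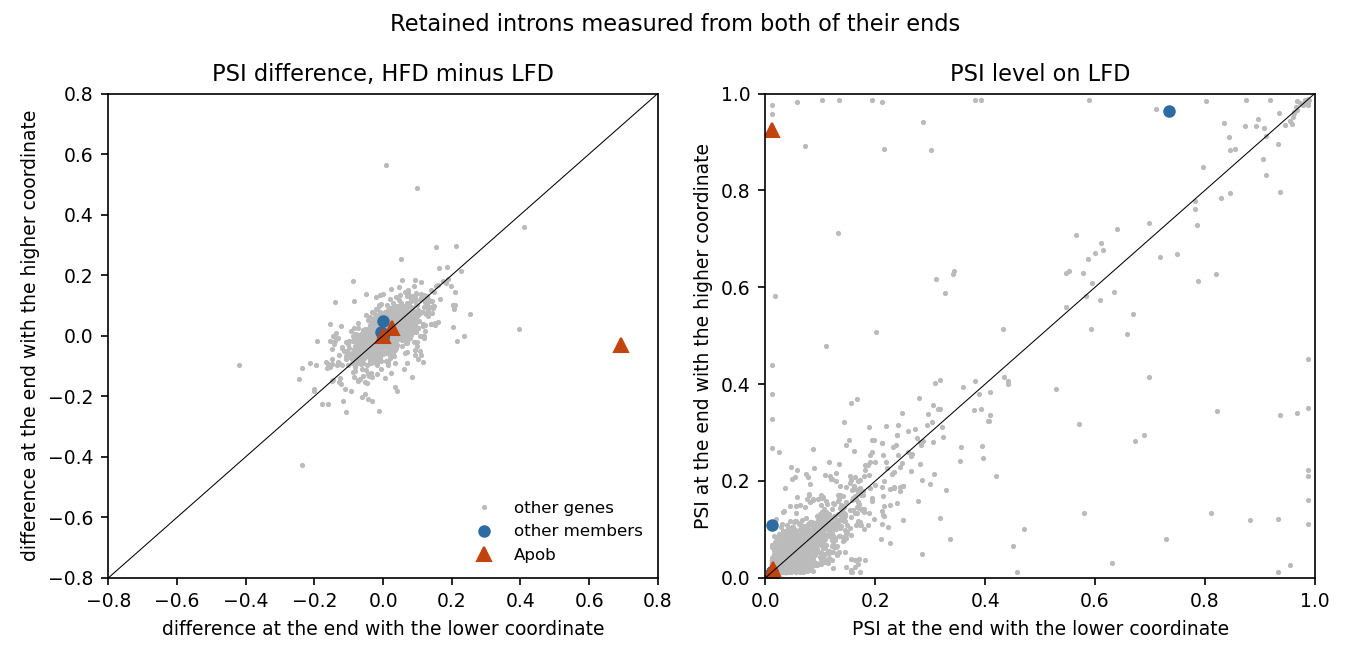
Each point is 1 of 3140 retained introns measured from both ends; the left panel plots the PSI difference between HFD and LFD at the end with the lower coordinate against that at the end with the higher coordinate, and the right panel does the same for the PSI level on LFD. Points on the diagonal line have equal values at both ends, and the Apob segment (triangle) lies away from it at 0.692 and -0.0316 on the left and at 0.0125 and 0.925 on the right.

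The authors' deposited table of LSVs that differed in a strict run listed 1 LSV of these genes, the one at the first part of the last Apob exon, where 0.36% of all matched LSVs were listed. In the authors' deposited table the 790-bp junction had a PSI of 0.214 on HFD and 0.819 on LFD, with a listed difference of -0.621. Its listed probability in the authors' deposited table is 0.307, while the other 5 entries of this LSV, some with a difference near 0, are listed at 1. That column is headed as the probability of an absolute difference of at least 0.2. A value of 1 beside a difference near 0 does not match this heading, so what the column holds is unclear. The LSV at the other end of the segment was not in the authors' deposited table. A second program, JUM, follows a different stretch here. The title line of its table names NC (normal chow) as the comparison while its column of changes is headed HFD minus LFD, and the direction of every JUM change below rests on that column heading. In the authors' deposited table of JUM events, the 609-bp stretch at chr12:8015083-8015691 is listed as a retained intron with a change of -0.00182 (HFD minus LFD, adjusted p = 0.119), which does not pass 0.05.

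Elsewhere in Apob the values moved little. An annotated intron of 107 bp at chr12:7989242-7989348 had a PSI of 0.0391 ± 0.0062 on HFD and 0.0139 ± 0.0057 on LFD from its upstream end, and 0.0444 ± 0.0112 on HFD and 0.0191 ± 0.0110 on LFD from its downstream end. The differences were 0.0252 (SD 0.0084) and 0.0254 (SD 0.0157), so both ends gave the same size and direction, unlike in the last exon, and only the first had a 95% interval that excluded 0. The 103-bp intron at chr12:8013831-8013933 was at the lower limit on both diets, and the authors' deposited table of JUM events gives it a change of 0.00396 (adjusted p = 0.4004). Of the 48 entries in 14 LSVs of Apob, 68.8% were at a limit of PSI on both diets.

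The remaining genes differed little between the diets. Of all 244 entries, those of Apob included, 200 (82.0%) stood at a limit of PSI on both diets, against 28.3% of the entries of all genes. Many of these are junctions that are not annotated and stood at the lower limit. The median absolute difference between the diets was 0, against 0.00298 in all genes, and the 95th percentile was 0.0243, against 0.0797. Outside Apob no entry passed the difference of 0.05, and the largest absolute difference was 0.0498, in Apoe. At the 12 entries with a PSI from 0.1 to 0.9 on both diets, the median SD was 0.0341 on HFD and 0.0340 on LFD, so differences well under 0.1 were within the error of an entry of intermediate PSI.

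**Figure D3:**
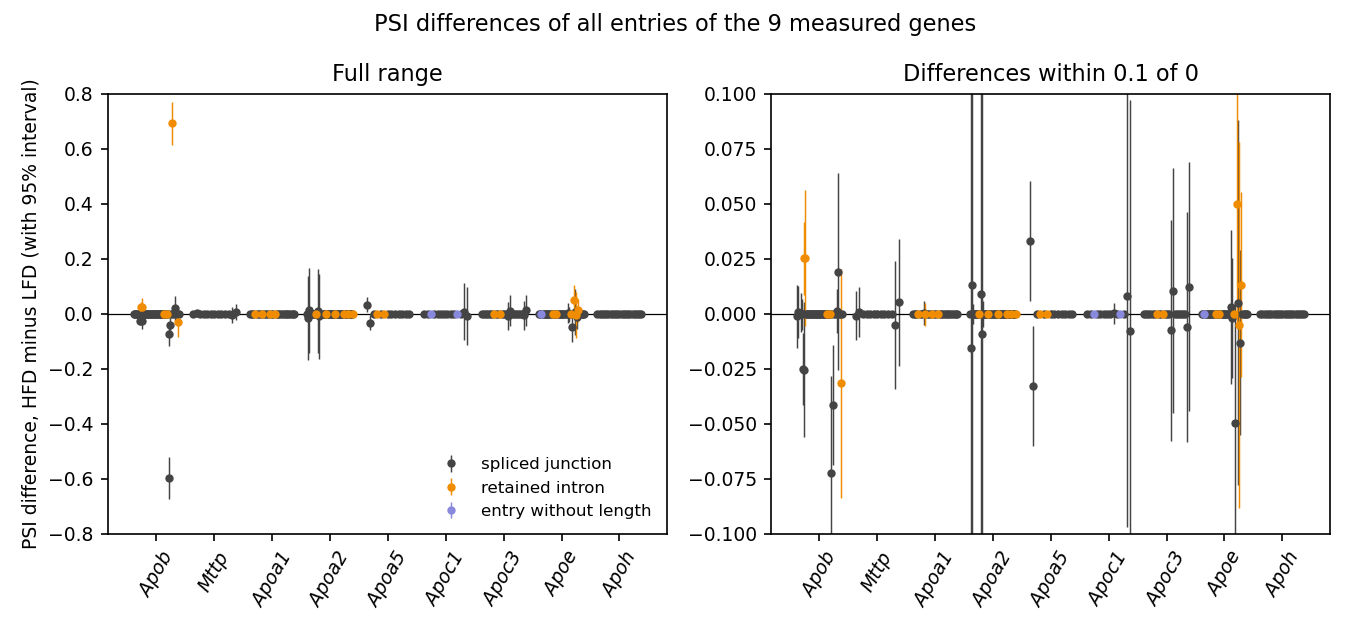
PSI difference (HFD minus LFD) of each of the 244 entries of the 9 measured genes, with bars for the 95% interval of the difference, over the full range (left) and within 0.1 of 0 (right). The Apob segment at 0.692 and the Apob 790-bp junction at -0.598 lie far from the other entries, most of which are at 0.

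Mttp encodes the lipid-loading subunit named above. Its 13 entries in 6 LSVs differed by at most 0.00515. The largest difference was between alternative first coding exons. The junction of 8754 bp to the exon of Mttp-202 had a PSI of 0.0346 ± 0.0090 on HFD and 0.0294 ± 0.0117 on LFD, and the 5994-bp junction to the exon of Mttp-201 had 0.965 on HFD and 0.971 on LFD. The exon of Mttp-201 thus held nearly all reads on both diets, and the diets overlapped within 1 SD.

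Apoa1 and Apoa2 encode the main proteins of high-density lipoprotein. Apoa1 had 26 entries in 5 LSVs, with a largest difference of 0.000333. Apoa2 had a balanced choice between sites on both diets. Its second exon has a pair of acceptors 3 bases apart, in the 5′ UTR upstream of the start codon at chr1:171225315-171225317, shown here from the Apoa2-202 transcript (plus strand, GRCm38) with capitals at the last 2 bases before each acceptor.
Apoa2 acceptor pair, chr1:171225269-171225298: gttctttctcaccAGcAGcactgttcctag
Read from the first exon, the upstream acceptor (Apoa2-201) had a PSI of 0.421 ± 0.0509 on HFD and 0.437 ± 0.0594 on LFD. The downstream acceptor (Apoa2-204) had a PSI of 0.550 ± 0.0521 on HFD and 0.537 ± 0.0593 on LFD. Both differences were smaller than 1 SD. In the authors' deposited table of JUM events, a composite event over chr1:171225122-171225730 in Apoa2 lists 17 changes, of which a pair of equal size and opposite sign reaches 0.108, with an adjusted p of 0.0872 for the whole event. Which junctions that pair belongs to could not be read from the table.

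Apoa5 and Apoc3 lie in the same gene cluster on chromosome 9 and act in opposite directions on plasma triglyceride. Apolipoprotein A-V promotes lipoprotein lipase action and apolipoprotein C-III inhibits it. Apoa5 held the only entries outside Apob that differed by at least 0.02 with a 95% interval excluding 0. By that rule 8 entries of these genes differed, 6 in Apob and 2 in Apoa5, where 10.1% of all genes' entries did. Within the first exon of Apoa5, which is 5′ UTR, a donor inside the exon was used in place of the annotated one. It is shown from the Apoa5-202 transcript (plus strand, GRCm38), with capitals at the first 2 bases taken out.
Apoa5 donor inside exon 1, chr9:46268765-46268794: ctagattgcattgagGTgggtgggtcatct
The junction from this donor had a PSI of 0.0457 ± 0.0137 on HFD and 0.0128 ± 0.0025 on LFD, a difference of 0.0329 with an SD of 0.0139. The annotated junction of Apoa5-202 had a PSI of 0.954 on HFD and 0.9872 on LFD. Both junctions end at the same acceptor, upstream of the start codon at chr9:46269098-46269100. In the authors' deposited table of JUM events, the annotated Apoa5 donor at position 46268838 changed by -0.0836 and a pair of upstream donors, at positions 46268480 and 46268619, by 0.0168 and 0.0668, with an adjusted p of 0.228. The annotated donor was lower on HFD in both sets of values, but against different donors. Its change of -0.0836 in the authors' deposited table of JUM events was against the upstream donors. Its difference of -0.0329 in the PSI tables was against the donor inside exon 1, which the JUM event does not list. The upstream donors lie before the start of the annotated gene at position 46268633 and have no counterpart in the PSI tables.

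Apoc3 had 23 entries in 5 LSVs, with a largest difference of 0.0123. Its alternative donors within 1 exon of the LSV, chr9:46234727-46235299, differed between the diets by less than 1 SD. The junction annotated in Apoc3-201 had a PSI of 0.8998 ± 0.0171 on HFD and 0.889 ± 0.0227 on LFD. The junction annotated in Apoc3-203 had 0.0862 ± 0.0164 on HFD and 0.0936 ± 0.0197 on LFD. The annotated start codon is at chr9:46234711-46234713 in Apoc3-201 and at chr9:46235253-46235255 in Apoc3-203. The 110-bp stretch at chr9:46234541-46234650 was at the lower limit as a retained intron on both diets and from both ends. In the authors' deposited table of JUM events, the same stretch changed by -0.115 (adjusted p = 0.357). The PSI tables and JUM thus gave different sizes for the same stretch, and neither passed its threshold.

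Apolipoprotein E is the ligand through which remnant particles bind hepatic receptors, and apolipoprotein C-I hinders that uptake. Apoe, on the minus strand of chromosome 7, had 40 entries in 9 LSVs, and the entries that varied lie upstream of its start codon at chr7:19698228-19698230. A 131-bp segment at chr7:19698273-19698403, which lies within an exon of Apoe-205 and is not an annotated intron, had a PSI of 0.159 ± 0.0226 on HFD and 0.109 ± 0.0161 on LFD from its end with the higher coordinate, a difference of 0.0498 with an SD of 0.0277 and a 95% interval that included 0. From its other end it was at the lower limit on both diets. As in Apob, the value depended on the end from which the segment was read, but here the 95% interval of the diet difference included 0 at both ends. A 50-bp segment at chr7:19698474-19698523 had a PSI of 0.730 ± 0.0315 on HFD and 0.735 ± 0.0283 on LFD from its end with the lower coordinate, and 0.978 ± 0.0138 on HFD and 0.965 ± 0.0164 on LFD from the other. The main junction of the 5′ UTR, chr7:19698253-19699011, had a PSI of 0.958 ± 0.0114 on HFD and 0.960 ± 0.0080 on LFD.

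In the authors' deposited table of JUM events, Apoe has a retained intron at chr7:19698549-19699010 that changed by 0.0992 (adjusted p = 0.125), and a composite event whose changes are at most 0.0001 in size, adjusted p = 0.172. The PSI tables hold the spliced junction over that 462-bp stretch, at the lower limit on both diets. Another Apoe LSV, with 3 entries all at a limit, was measured on LFD only. Apoc1 had 14 entries in 4 LSVs, with a largest difference of 0.00806. Its first intron ends at either of 2 acceptors upstream of the start codon. The annotated acceptor had a PSI of 0.869 ± 0.0358 on HFD and 0.877 ± 0.0398 on LFD, and the other, 17 bp closer to the start codon, had 0.131 ± 0.0358 on HFD and 0.123 ± 0.0397 on LFD. Apoh, which encodes the phospholipid-binding plasma protein beta-2-glycoprotein I, had 21 entries in 6 LSVs, each at a limit on both diets.

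**Figure D4:**
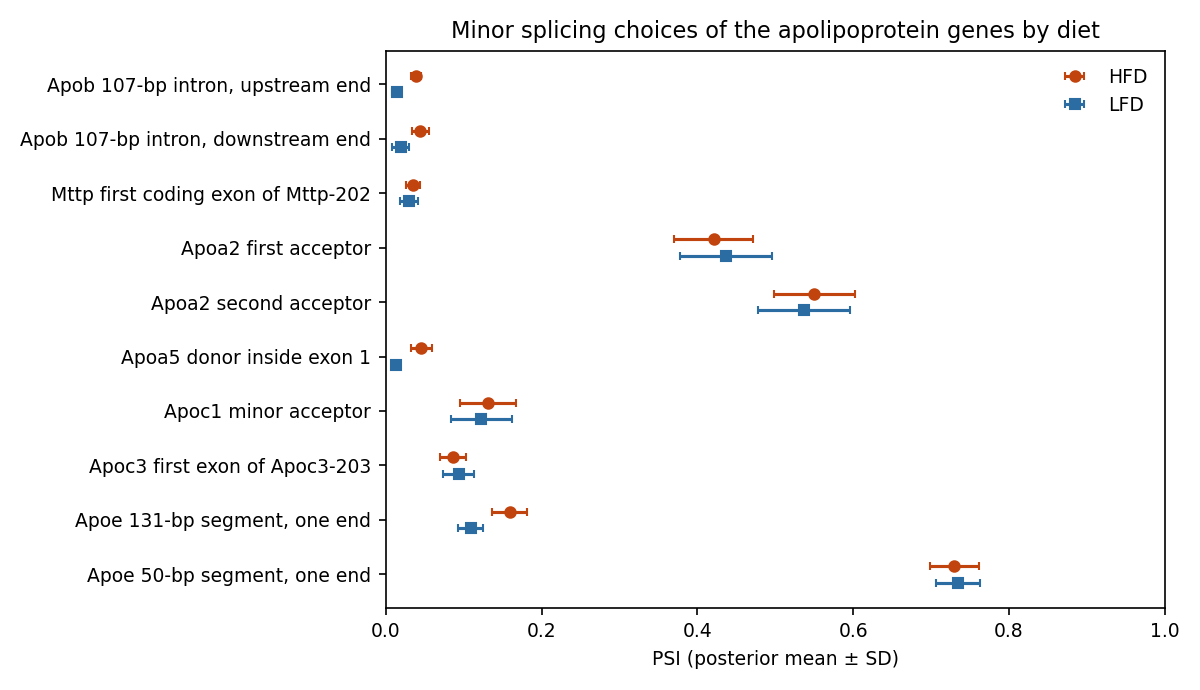
PSI (posterior mean ± SD) on HFD (circles) and LFD (squares) for 10 minor or balanced splicing choices in these genes outside the last exon of Apob. The diets overlap within 1 SD at the Mttp, Apoa2, Apoc1 and Apoc3 entries and at the Apoe 50-bp segment, while the Apoa5 donor inside exon 1 stands at 0.0457 on HFD and 0.0128 on LFD.

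Across the JUM events, 7 of the 470 in the authors' deposited table were in 5 of these genes (Apob, Apoa2, Apoa5, Apoc3 and Apoe). None of the 7 had an adjusted p under 0.05, which 17.7% of all listed events had. The table lists only events with an unadjusted p under 0.05, so all 7 passed that limit.

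Other genes of the pathway were taken from 5 lists drawn up with earlier results of these tables known: other apolipoproteins, assembly and secretion of very-low-density lipoprotein, clearance and remodelling, editing of Apob mRNA, and transcription factors of apolipoprotein genes. Of 81 genes, 65 were measured. By the rule of 0.2, 1 of the 65 (1.54%) differed, against 2.31% of all genes, and by the rule of 0.05, 20 of the 65 (30.8%) differed, against 27.0% of all genes. The median over genes of the largest difference was 0.0322 in the lists and 0.0310 in all genes, against 0.0123 for the 9 measured genes described above.

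The 1 gene past the rule of 0.2 was Cidec, which encodes a lipid droplet protein that enlarges droplets. Its annotated 83-bp intron at chr6:113428312-113428394, read from the end with the higher coordinate, had a PSI of 0.0134 ± 0.0049 on HFD and 0.230 ± 0.0391 on LFD. In the assembly list, Sar1a, a GTPase of the vesicles that leave the endoplasmic reticulum, had a junction at 0.973 ± 0.0160 on HFD and 0.827 ± 0.0255 on LFD. Dgat1, an enzyme of triglyceride synthesis, retained an 84-bp intron. Read from the end with the lower coordinate, this intron had a PSI of 0.115 ± 0.0407 on HFD and 0.0127 ± 0.0021 on LFD. These differences of Sar1a and Dgat1 were below 0.2, with 95% intervals that excluded 0.

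Apobec1 encodes the deaminase that edits Apob mRNA and so creates the stop codon of the short apolipoprotein B. In the PSI tables its 426-bp junction had a PSI of 0.0764 ± 0.0277 on HFD and 0.185 ± 0.0269 on LFD, and its 445-bp junction had 0.482 ± 0.0518 on HFD and 0.439 ± 0.0348 on LFD. The authors' deposited table of the strict run lists Apobec1 with a retained intron of 334 bp at a PSI of 0.505 on HFD and 0.111 on LFD, and with the 445-bp junction at 0.369 on HFD and 0.599 on LFD. That intron was not an entry of the LSV at this exon in the PSI tables. The PSI tables held 1091-bp and 6394-bp junctions there, the latter at 0.355 on HFD and 0.314 on LFD, that the strict run did not list. The 445-bp junction was higher on HFD in the PSI tables, within 1 SD, and lower on HFD in the authors' deposited table. Its PSI is a fraction of a different set of entries in each, so these directions cannot be compared.

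Among other apolipoproteins, Apoc2, the activator of lipoprotein lipase, had a 4420-bp junction at 0.891 ± 0.0249 on HFD and 0.760 ± 0.0307 on LFD. This junction is not an annotated intron. The annotated 981-bp junction of Apoc2-203 in the same LSV had a PSI of 0.109 ± 0.0249 on HFD and 0.240 ± 0.0307 on LFD. Abcg8, a sterol exporter of the bile canaliculus, had a pair of acceptors 3 bases apart, like Apoa2. Its downstream acceptor had a PSI of 0.486 ± 0.0407 on HFD and 0.631 ± 0.0309 on LFD. Its 94-bp intron, read from the end with the higher coordinate, had 0.140 ± 0.0294 on HFD and 0.0368 ± 0.0154 on LFD. Among the transcription factors, the annotated 1002-bp junction of Foxa2 had a PSI of 0.776 ± 0.0474 on HFD and 0.911 ± 0.0308 on LFD, and the 16831-bp junction of the bile acid receptor gene Nr1h4 had 0.784 ± 0.0324 on HFD and 0.657 ± 0.0334 on LFD. Each of these entries differed by less than 0.2 with a 95% interval that excluded 0. None of the 8 genes of the lists with a JUM event in the authors' deposited table had one past the adjusted p of 0.05.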

How the data were processed

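The submitters' processing notes name FastQC for read checks, STAR and the mm10 genome, without versions; read minimums were not given in the sources. Per the file headers, voila, the viewer of MAJIQ, wrote the authors' deposited PSI table for each diet (pooled posterior mean and variance) and the dPSI table of a strict run, and JUM wrote the table of events, whose change column is headed HFD minus LFD. JUM positions were moved by 1 base to match intron ends.

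LSVs were matched by ID. An entry was called where PSI differed by at least 0.2, or 0.05, with a 95% interval from the summed posterior variances that excluded 0, over all genes; the rule was tested on simulated data. Entries were named that differed most in each gene, and pathway genes that differed or had the largest differences. Places were compared with GENCODE M21 (GRCm38), whose transcripts gave the sequences. Python 3.11.15, pandas 2.3.3 and numpy 2.4.6 were used. The genes, lists and rules were chosen with earlier results of these data known. Alternatives were other thresholds, precision limits, matching by coordinates and other tables. Samples were grouped by title. A gene that the naming rule selects is not reported here.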

Additional observations from a re-analysis of the deposited data

How the results depend on the processing

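The 2 Apob entries past the difference of 0.2 were the count under every other threshold, precision limit and matching tried, but the count was 0 without the LSV at the first part of the last Apob exon, an alternative chosen after seeing the data. The 3 entries past 0.05 became 8 at a difference of 0.02 and 0 without that LSV. The Apob segment's difference of 0.692 was 0.712 in the authors' deposited dPSI table and reversed to -0.0316 when measured at the segment's other end, also chosen after seeing the data. The cause was not tested. JUM events counted 0 by adjusted p and 7 with all listed events. Entries of the pathway lists past the rule numbered 2, and 21 at a difference of 0.1. No paired analysis was possible because the tables hold no values per library, and for the same reason no library could be left out. Depth per library is unknown, and posterior SDs do not cover animals.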
